A study of Mus musculus with 35 samples.

Results

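The genes described here are the Toll-like receptor genes *Tlr1*, *Tlr2*, *Tlr3*, *Tlr4*, *Tlr5*, *Tlr6*, *Tlr7*, *Tlr9* and *Tlr13*, together with *Cd14*, which encodes a co-receptor of TLR4. They were taken by symbol from a fixed list. All 10 were found among the 53465 genes of the bulk RNA-seq table and among the 21548 genes of the single-cell tables. The study sorted 4 populations from mouse brain at E14.5, in mid-gestation, and sequenced them in bulk and as single cells: neural cells, microglia, and the endothelial and mural cells of blood vessels. The 12 bulk libraries came from 3 wild-type brains by the study's text (no label gives their genotype), with 1 library of each population per brain (N neural, Mu mural, Ec endothelial, Mi microglial, followed by the brain's number, as in Mi-340, Mi-343 and Mi-346), and the labels name no treatment. The single cells came from 3 wild-type plates; cells of *Mof* knockout brains were not used here. In the wells, mural cells were gated as high for PDGFRb, low for PECAM1 and negative for CD45 and CD41. The endothelial gate was high for PECAM1 and CD102 and low for PDGFRb, CD41 and CD45. The table of wells gives microglia as CD45 medium and CD41 positive, with low PDGFRb and PECAM1, whereas the study's text names CD11b in place of CD41. *Itga2b*, the gene of CD41, had a UMI in 5 of 128 of these cells. The microglial genes *C1qc*, *Csf1r* and *P2ry12* had a UMI in 123, 125 and 121. In the same cells the border macrophage gene *Mrc1* had a UMI in 47 (36.7%), the monocyte gene *Ccr2* in 7 and the neutrophil gene *S100a8* in 3, so the gate is not shown to hold microglia alone; the part of such cells in the receptor shares was not tested. Neural cells were negative for all of the sorted proteins. Neural libraries were made with a TruSeq kit and the other 3 populations with SMART-Seq v4 and Nextera XT, so that the kit and the neural population cannot be told apart. In bulk libraries, fewer cells that hold a transcript and less of it per cell cannot be told apart either.

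Toll-like receptors are membrane proteins of the innate immune system whose leucine-rich ectodomains bind molecules of microbes or of damaged cells. TLR1, TLR2, TLR4, TLR5 and TLR6 act mainly at the cell surface on bacterial lipids and proteins, whereas TLR3, TLR7, TLR9 and TLR13 sense nucleic acids in endosomes. Nearly all of them signal through the adaptor MYD88, TLR3 through TICAM1 (TRIF) and TLR4 through both, to NF-κB and interferon regulatory factors. In the adult brain microglia are the best known carriers of these receptors.

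In GRCm38, *Tlr1* (chr5:64924679-64933563) and *Tlr6* (chr5:64952031-64960097) are neighbours on the minus strand, and *Tlr2* is at chr3:83836272-83841767 on the minus strand. *Tlr7* (chrX:167304929-167330558, minus) and *Tlr13* (chrX:106143204-106160493, plus) are on the X chromosome. *Tlr3* (chr8:45395665-45411080, minus), *Tlr4* (chr4:66827584-66930284, plus), *Tlr5* (chr1:182954788-182976044, plus) and *Tlr9* (chr9:106222598-106226883, plus) each lie apart. All 10 genes are protein-coding. *Tlr3* shares 381 exon bases with the antisense gene *Gm45542* on the opposite strand, which was listed at 0 in all 12 bulk libraries. *Tlr1* and *Tlr6* are close relatives in sequence, so reads of one may have been counted for the other.

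The RefSeq table of promoter windows (GRCm38.p6, from 250 bases before to 50 bases after a gene's start) held 9 windows for 7 of the genes; *Tlr1* and *Tlr6* had 2 each, *Tlr4* and *Tlr7* were not matched, and *Cd14* was left out. Motifs of 3 types were searched on both strands. GAGGAA, the core bound by the myeloid ETS factor PU.1, was in 28.3% of all 32851 windows. GGGANTTNC, an NF-κB type motif, was in 4.26% of them, and GAAANNGAA, of the interferon response element type, in 8.56%. GAGGAA was found in 3 of the 9 windows, those of *Tlr1*, *Tlr9* and *Tlr13*. These windows are shown with the motif in capitals, and TTCCTC in that of *Tlr9* is the same motif on the other strand; they lie at chr5:64933509-64933808 (minus), chr9:106222348-106222647 (plus) and chrX:106143025-106143324 (plus).
Tlr1: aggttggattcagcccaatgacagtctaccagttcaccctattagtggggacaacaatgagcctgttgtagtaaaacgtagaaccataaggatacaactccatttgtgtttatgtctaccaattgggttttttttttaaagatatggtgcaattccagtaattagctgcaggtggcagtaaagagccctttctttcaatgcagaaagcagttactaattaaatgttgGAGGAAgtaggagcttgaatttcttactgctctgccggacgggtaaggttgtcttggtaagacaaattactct
Tlr9: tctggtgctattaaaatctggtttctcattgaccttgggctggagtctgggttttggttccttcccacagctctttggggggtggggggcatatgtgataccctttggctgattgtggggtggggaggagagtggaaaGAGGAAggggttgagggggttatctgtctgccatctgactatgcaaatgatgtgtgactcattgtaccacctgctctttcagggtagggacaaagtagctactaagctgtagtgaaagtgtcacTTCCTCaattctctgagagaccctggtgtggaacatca
Tlr13: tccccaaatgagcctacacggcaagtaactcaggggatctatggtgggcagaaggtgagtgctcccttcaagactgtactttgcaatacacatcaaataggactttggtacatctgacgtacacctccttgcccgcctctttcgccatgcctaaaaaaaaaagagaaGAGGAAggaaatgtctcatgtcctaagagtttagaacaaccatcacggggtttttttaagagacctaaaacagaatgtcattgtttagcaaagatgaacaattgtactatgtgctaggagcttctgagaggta

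GGGANTTNC was found in the windows of *Tlr2* and *Tlr3*. These windows, again with the motif in capitals (in that of *Tlr2*, matches on both strands overlap), lie at chr3:83841559-83841858 and chr8:45410331-45410630, both on the minus strand.
Tlr2: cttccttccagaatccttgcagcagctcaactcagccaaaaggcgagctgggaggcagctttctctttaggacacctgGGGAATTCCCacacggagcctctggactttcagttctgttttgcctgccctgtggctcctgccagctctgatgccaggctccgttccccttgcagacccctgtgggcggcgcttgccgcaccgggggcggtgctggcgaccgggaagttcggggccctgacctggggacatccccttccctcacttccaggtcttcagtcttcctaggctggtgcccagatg
Tlr3: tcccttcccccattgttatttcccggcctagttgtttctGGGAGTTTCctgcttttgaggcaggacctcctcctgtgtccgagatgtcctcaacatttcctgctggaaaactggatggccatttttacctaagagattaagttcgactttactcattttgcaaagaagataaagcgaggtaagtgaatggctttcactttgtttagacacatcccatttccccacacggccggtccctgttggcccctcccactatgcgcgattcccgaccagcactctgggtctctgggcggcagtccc
GAAANNGAA was found in 1 window of *Tlr6*, with 2 overlapping matches. The window of *Tlr5*, the second window of *Tlr1* and the second of *Tlr6* held none of the 3 motifs. A match is a run of letters and not a measured binding site.

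The bulk libraries held 17638358 to 98414914 reads on genes. One read was worth 0.264 to 1.77 of the authors' normalized counts, and 0.264 to 1.34 in neural libraries. Each population carried its own markers, with 7-gene sums of 151057 to 163749 normalized counts for neural markers in neural libraries, of 699910 to 753151 for mural markers in mural and of 156473 to 185692 for endothelial markers in endothelial libraries. The 9 microglia markers summed to 332364 to 344476 normalized counts in microglial libraries, 81.7 to 114 in mural, 17.7 to 182 in endothelial and 6.09 to 8.01 in neural libraries. Markers of other types were also present. Neural markers summed to 16889 to 30714 in mural and 16189 to 16482 in endothelial libraries, against 5619 to 8230 in microglial ones. Fibroblast markers summed to 3565 to 4954 in mural libraries, and erythroid markers to 12168 to 32942 in endothelial and 8484 to 11347 in neural libraries. The part of these cells in the mural and endothelial receptor levels was not tested. One microglial library, Mi-346, stood apart in the monocyte marker *Ccr2*, with 4333 normalized counts against 1113 and 1067 in the others. It was also the highest microglial library for 8 of the 10 genes, all but *Tlr4* and *Tlr6*, with 1.30-fold (*Tlr9*) to 7.49-fold (*Tlr3*) the lowest where that was above 0. Mi-346 also had the most genes above 0 of the microglial libraries (23440, against 20499 in Mi-340 and 21888 in Mi-343). The share of all genes highest in Mi-346 was not counted, so 8 of 10 is not read as a trait of these genes. The single-cell tables gave 686 cells with over 1500 transcripts out of 994 gated wells: 123 neural, 210 mural, 225 endothelial and 128 microglial cells, with median depths of 7717, 6885, 6408 and 10761 transcripts. No doublet caller was run.

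Of the 10 genes, 9 had a mean of at least 10 normalized counts and entered the test across genes; *Tlr5* did not. *Tlr1*, *Tlr6*, *Tlr7* and *Tlr9* passed only through their microglial libraries, so for these 4 a difference was built into the filter. Of the 9, 8 were called higher in microglia than in the mean of the other populations (limma, adjusted p under 0.05), and in all 8 the 3 microglial libraries lay above the other 9. Across all 19765 genes tested, 23.4% were called higher in microglia and 11.5% had all 3 microglial libraries above the rest. The median difference over the 9 genes was 7.04 on the log2 scale, the value of *Tlr6*. With populations at 0 set to 3 reads per library it was 6.89. Over all genes the median was -0.02. The calls, the separation of libraries and the median include the 4 genes with a difference built in. They are therefore not read against the values over all genes. Apart from those 4, *Tlr2*, *Tlr4*, *Tlr13* and *Cd14* were called, with differences of 7.78, 5.69, 6.89 and 10.64. *Tlr3* was the exception and was not called. In the other populations, *Tlr2* and *Tlr3* were called higher in endothelial cells (background 19.7%), *Tlr4* in mural cells (background 19.3%) and none in neural cells (background 32.9%). None of the 9 was higher in neural cells at an unadjusted p under 0.05 either, with limma or with edgeR on reads recovered from the values.

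**Figure D1:**
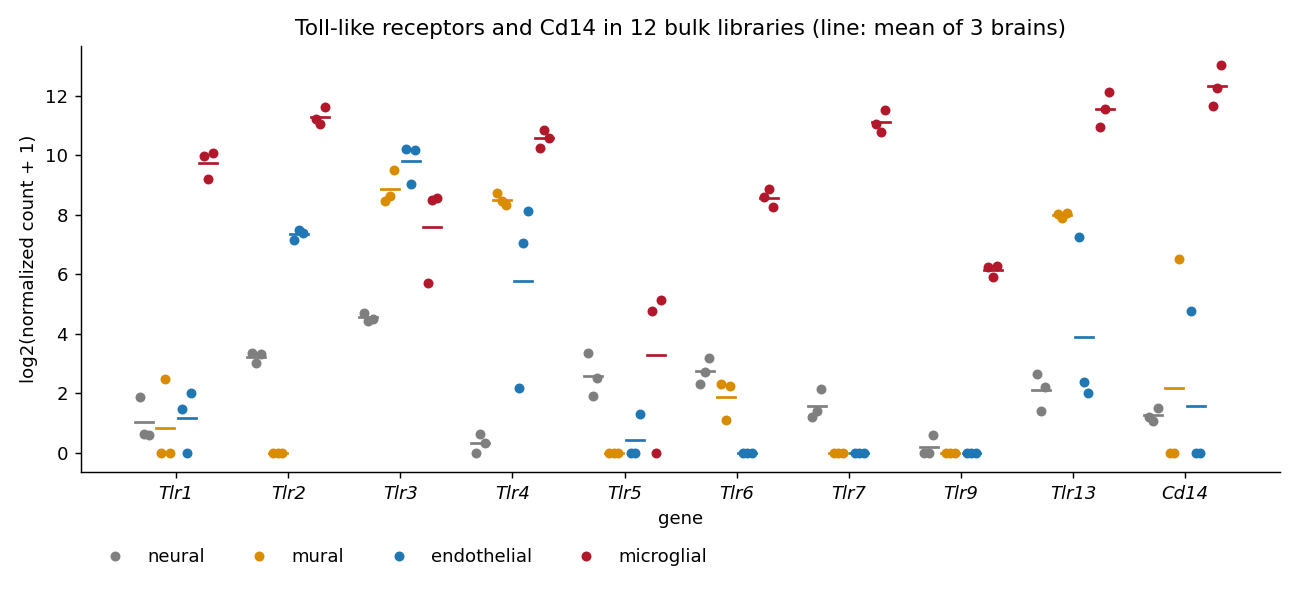
Level of each gene in the 12 bulk libraries as log2(normalized count + 1), with 1 point per library, coloured by population, and a line at the mean of 3 brains. The microglial mean is highest for every gene but *Tlr3*; for *Tlr5* the microglial library Mi-343 is at 0, below all 3 neural libraries.

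*Tlr2* encodes the receptor of bacterial lipoproteins, which pairs with TLR1 or TLR6. It stood at 2395, 2117 and 3198 normalized counts in Mi-340, Mi-343 and Mi-346, an order of brains kept for all values that follow. The endothelial libraries gave 142, 179 and 166, the neural ones 9.35, 7.20 and 8.98, and the mural ones 0 throughout. No 2 populations overlapped, and the order was microglia, endothelial, neural, mural. Microglia held 2570 ± 561 (mean ± SD, n = 3), 15.8-fold the endothelial mean of 162 ± 18.8 and at least 1021-fold the mural level, taken at 3 reads per library. The endothelial level was in turn 19.1-fold the neural one. Against the mean of the other populations the difference was 7.78 ± 0.38 (log2, SE) in microglia (limma, adjusted p = 4.97e-08) and 2.49 ± 0.38 in endothelial cells (limma, adjusted p = 4.3e-04). Each neighbouring pair in the order differed (limma, adjusted p of 5.67e-05, 2.66e-05 and 1.54e-04).

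The partners of TLR2 were held by microglia alone at more than a few counts. *Tlr1*, for triacylated lipopeptides, stood at 1015, 588 and 1092 in microglia and at 0 to 4.57 in the other 9 libraries. Its microglial mean was 898 ± 271 (SD, n = 3), 718-fold the neural and 590-fold the mural mean, which rest on 5 and 4 reads. Both of these lower means lie below 3 reads per library, and all mural reads were in Mu-343. The ratio to endothelial cells, which had 3 reads in all, was 563 with a counting interval of 193 to 2729. *Tlr6*, for diacylated lipopeptides, stood at 391, 471 and 305 in microglia, at 4.01 to 8.19 in neural and 1.14 to 3.93 in mural libraries, and at 0 in all endothelial libraries. The microglial mean of 389 ± 83.1 was 65.8-fold the neural, 132-fold the mural and at least 82.7-fold the endothelial level. The difference from the other populations was 8.75 ± 0.68 for *Tlr1* (limma, adjusted p = 1.84e-06) and 7.04 ± 0.46 for *Tlr6* (limma, adjusted p = 4.28e-07). Below microglia, the *Tlr1* levels of the other populations overlapped and no pair of them was called.

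*Tlr5*, the flagellin receptor, had the lowest microglial level of the genes. The microglial libraries gave 26.2, 0 and 34.0, the neural ones 9.35, 2.77 and 4.76, the endothelial ones 0, 0 and 1.51, and the mural ones 0. Microglia and neural cells overlapped, since 1 microglial library was at 0. An exact permutation test of the 3 microglial against the other 9 libraries gave a two-sided p of 0.127, where the smallest possible is 0.00909.

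*Tlr4*, the lipopolysaccharide receptor, was found in 3 of the 4 populations. It stood at 1227, 1855 and 1537 in microglia, at 423, 355 and 320 in mural libraries, and at 3.54, 133 and 279 in endothelial libraries. The neural libraries gave 0, 0.554 and 0.264. No neighbours in this order overlapped, although the endothelial libraries spread from 2 reads in Ec-340 to 279 normalized counts in Ec-346. The mural mean of 366 ± 52.2 (SD, n = 3) was 23.8% of the microglial 1540 ± 314, and the endothelial 139 ± 138 was 9.01%. Against the mean of the others, microglia were higher by 5.69 ± 0.97 (limma, adjusted p = 6.73e-04) and mural cells by 2.95 ± 0.97 (limma, adjusted p = 0.0314). The pairs microglia and mural (limma, adjusted p = 0.204) and mural and endothelial (limma, adjusted p = 0.115) were not called, the endothelial and neural pair was (limma, adjusted p = 0.00246) but not without the brain of Mi-343 or that of Mi-346 (limma, adjusted p of 0.0585 and 0.0619). The mural call was lost without any 1 of the 3 mural libraries, N-340 or Mi-340 (limma, adjusted p of 0.0514 to 0.0936). Without Ec-340 the endothelial difference from the others turned from -0.67 to 1.13 (limma, adjusted p = 0.0515), and the microglia and mural pair was called (limma, adjusted p = 0.00323), with the same difference of 2.06.

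*Cd14* (chr18:36725067-36726798, minus), whose product hands lipopolysaccharide to TLR4, was 3272, 4893 and 8351 in microglia. It was 0, 0 and 91.1 in mural, 26.6, 0 and 0 in endothelial and 1.34, 1.11 and 1.85 in neural libraries. One mural and 1 endothelial library thus carried nearly all reads outside microglia, and the 3 lower populations overlapped. The microglial mean of 5505 ± 2594 (SD, n = 3) was 181-fold the mural, 621-fold the endothelial and 3848-fold the neural mean, which rest on 97, 15 and 10 reads. The difference was 10.64 ± 1.42 (limma, adjusted p = 1.14e-04). Among the microglial libraries *Cd14* had a coefficient of variation of 47.1%, with its highest value in Mi-346, the library high in *Ccr2*; the part of monocytes in the level was not tested. Without that library the call held, as it did under every alternative that was run.

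*Tlr7*, which senses single-stranded RNA, was at 0 in both vascular populations. Its microglial values were 2149, 1765 and 2922, its neural values 1.34, 1.66 and 3.43. The microglial mean of 2279 ± 590 (SD, n = 3) was 1063-fold the neural mean, at least 905-fold the mural and at least 485-fold the endothelial level. The difference was 10.59 ± 0.42 (limma, adjusted p = 1.20e-08).

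*Tlr9*, the receptor of unmethylated CpG DNA, followed the same order at a much lower level, with 74.9, 59.3 and 76.8 in microglia. Outside microglia only 1 neural library had any reads, 2 in number. The microglial mean was 70.3 ± 9.60 (SD, n = 3), at least 27.9-fold the mural and at least 15-fold the endothelial level. The difference was 6.08 ± 0.32 (limma, adjusted p = 9.56e-08).

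*Tlr13*, which recognises bacterial ribosomal RNA, was 2002, 3050 and 4437 in microglia and 261, 239 and 266 in mural cells. The endothelial libraries gave 151, 4.26 and 3.02 and the neural ones 5.34, 1.66 and 3.70. Mural libraries were thus close together and above every endothelial library, while Ec-340 stood far above the other 2. Among the microglial libraries Mi-346 was 2.22-fold Mi-340. The mural mean of 255 (n = 3) was 8.06% of the microglial 3163 ± 1221 and 71.5-fold the neural mean. Microglia were higher than the mean of the others by 6.89 ± 0.93 (limma, adjusted p = 1.23e-04). Mural cells were higher by 2.15 ± 0.93 without passing (limma, adjusted p = 0.0848), and by 2.71 with Ec-340 left out, where they passed (limma, adjusted p = 5.11e-04). The microglia and mural pair (limma, adjusted p = 0.0295) lost its call without any 1 of the 6 libraries compared (limma, adjusted p of 0.0502 to 0.0924). The mural and endothelial pair was also called (limma, adjusted p = 0.0199), and lost its call without Mu-340, Mu-346, Ec-343 or Ec-346 (limma, adjusted p of 0.0501 to 0.067) and with edgeR on recovered reads (adjusted p = 0.12).

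*Tlr3*, the receptor of double-stranded RNA, had a different order. Endothelial libraries gave 1196, 521 and 1160, mural ones 351, 401 and 724, microglial ones 51.1, 358 and 383 and neural ones 25.4, 20.5 and 22.0. The first 3 populations overlapped with their neighbours, and only the neural libraries lay below all others. The endothelial mean of 959 ± 380 (SD, n = 3) was 1.95-fold the mural, 3.63-fold the microglial and 42.4-fold the neural mean. Endothelial cells were higher than the mean of the others by 2.81 ± 0.58 (limma, adjusted p = 0.00287). Mural cells were higher by 1.55 ± 0.58 without passing (limma, adjusted p = 0.0508), and passed without any 1 of the 3 microglial libraries (limma, adjusted p of 0.0172 to 0.0401). Microglia differed by -0.15 ± 0.58 (limma, adjusted p = 0.848), a sign that turned without Mi-340 (0.79, limma, adjusted p = 0.146). Endothelial cells were called above microglia (limma, adjusted p = 0.0333), but not without Ec-340, Ec-346 or Mi-340 (limma, adjusted p of 0.0688 to 0.0902). Leaving out any 1 brain ended this call too (limma, adjusted p of 0.0605 to 0.199, with differences of 1.07 to 3.06 in place of 2.22), as did testing without the filter on low values (limma, adjusted p = 0.0533) and edgeR on recovered reads (adjusted p = 0.0553). The endothelial and mural (limma, adjusted p = 0.358) and the mural and microglia pairs (limma, adjusted p = 0.183) were not called.

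Over the 6 pairs of populations, 38 of the 54 gene-by-pair differences of the 9 genes were called, against 45.0% of such differences over all genes. All pairs of *Tlr1*, *Tlr6*, *Tlr7* and *Tlr9* with microglia were called, and these differences were built into the filter. The 38 calls are therefore not read against that share. Over all genes the share was 54.6% for neural and mural, 57.7% for neural and endothelial, 59.8% for neural and microglial, 27.8% for mural and endothelial, 38.0% for mural and microglial and 32.4% for endothelial and microglial cells. Some called differences were set against a population at 0. In neural libraries *Tlr2* was above mural cells, *Tlr6* above endothelial cells (limma, adjusted p = 0.00161) and *Tlr7* above both (limma, adjusted p of 0.0211 and 0.02), with neural levels of 1.34 to 9.35 normalized counts. Over the 3 neural libraries these were 54 reads of *Tlr2*, 44 of *Tlr6* and 17 of *Tlr7*. Mural *Tlr6* was also called above endothelial cells (limma, adjusted p = 0.028), on 14 reads against 0. Its mural mean of 2.94 lay below 3 reads per library in endothelial cells (4.70), and the neural *Tlr7* mean of 2.14 below the same floor in mural (2.52) and endothelial cells, so no fold is given for these. The neural libraries also had their own kit, and N-346 was the deepest library; their part in such small values was not tested.

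Per kilobase of exon, levels can be set side by side between genes. In microglia the 9 receptors summed to 2871 ± 630 normalized counts per kb (SD, n = 3), of which *Tlr2* made up 29.7%, *Tlr13* 25.6%, *Tlr7* 19.4%, *Tlr4* 9.65%, *Tlr1* 9.35% and *Tlr6* 3.63%. *Tlr3* contributed 1.77%, *Tlr9* 0.704% and *Tlr5* 0.146%. The co-receptor *Cd14* alone stood at 3179 ± 1498 per kb, above the sum of the receptors in the mean. By library, *Cd14* was at 1889 and the sum at 2452 per kb in Mi-340, 2825 and 2565 in Mi-343 and 4821 and 3595 in Mi-346, so that *Cd14* was below the sum in Mi-340 and furthest above it in Mi-346. In endothelial cells the receptors summed to 276 ± 79.6 per kb, with 66.8% from *Tlr3*, 19.5% from *Tlr2* and 9.05% from *Tlr4*. In mural cells they summed to 221 ± 33.6 per kb, with 42.8% from *Tlr3*, 29.8% from *Tlr4* and 26.8% from *Tlr13*. Neural cells had a sum of 11.8 ± 2.05 per kb. Both vascular populations were without reads of *Tlr7* and *Tlr9*, and each drew most of this sum from *Tlr3*, *Tlr4* and *Tlr2* or *Tlr13*. The sums cover the 9 receptors named at the outset and leave out *Tlr12*, which at 783 per kb was above the whole mural sum and stood at 59.0 per kb in endothelial, 64.2 in microglial and 0.74 in neural cells.

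The receptor levels outside microglia were set beside the microglia markers in the same libraries. In mural libraries the 9 markers (*Ptprc*, *Itgam*, *C1qa*, *C1qb*, *C1qc*, *Csf1r*, *Cx3cr1*, *P2ry12* and *Aif1*) stood at 0 to 0.166% of their microglial means, with *C1qa*, *C1qb*, *C1qc* and *P2ry12* at 0. *Tlr4* at 23.8%, *Tlr13* at 8.06% and *Tlr3* at 186% were far above that range, and *Tlr6* at 0.757% and *Cd14* at 0.552% were closer to it. In endothelial libraries the markers stood at 0 to 0.104%, against 363% for *Tlr3*, 9.01% for *Tlr4*, 6.31% for *Tlr2* and 1.66% for *Tlr13*. Of these, *Tlr13* was at 4.76% in Ec-340 but at 0.135% and 0.0954% in Ec-343 and Ec-346, and *Tlr4* was at 0.23% in Ec-340. In Ec-346 *Tlr13* lay below the marker *P2ry12* (0.313%). In Ec-340 and Ec-343 the highest of the 9 markers was at 0.022% and 0.04%, below *Tlr4* and *Tlr13* there, whereas the border macrophage gene *Mrc1* was at 0.463% and 0.163%, and at 0 in Ec-346. Other border macrophage genes differed from it, with *Pf4* at 0, 11.5% and 3.79% in Ec-340, Ec-343 and Ec-346. By the same libraries *F13a1* was at 0.821%, 0 and 3.68% and *Lyve1* at 0, 1.07% and 3.41%. Of 7 border macrophage markers, *Cd163*, *Pf4*, *F13a1* and *Ms4a7* were at 0 in all mural libraries. *Mrc1* was at 727, 380 and 155 there, 4.39% of its microglial mean, *Lyve1* at 268, 109.6 and 170, or 45.9%, and *Cbr2*, low in microglia, at 46.3, 0 and 50.7, or 203%. The list summed to 376 to 1041 in mural, 108 to 279 in endothelial and 15428 to 19620 in microglial libraries. In endothelial cells *Cbr2* was at 251%, *Pf4* at 5.1%, *F13a1* at 1.5%, *Lyve1* at 1.5% and *Mrc1* at 0.209% of the microglial mean, and *Cd163* and *Ms4a7* were at 0. Whether these transcripts and the mural *Tlr4* or *Tlr13* come from the same cells was not tested in bulk.

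**Figure D2:**
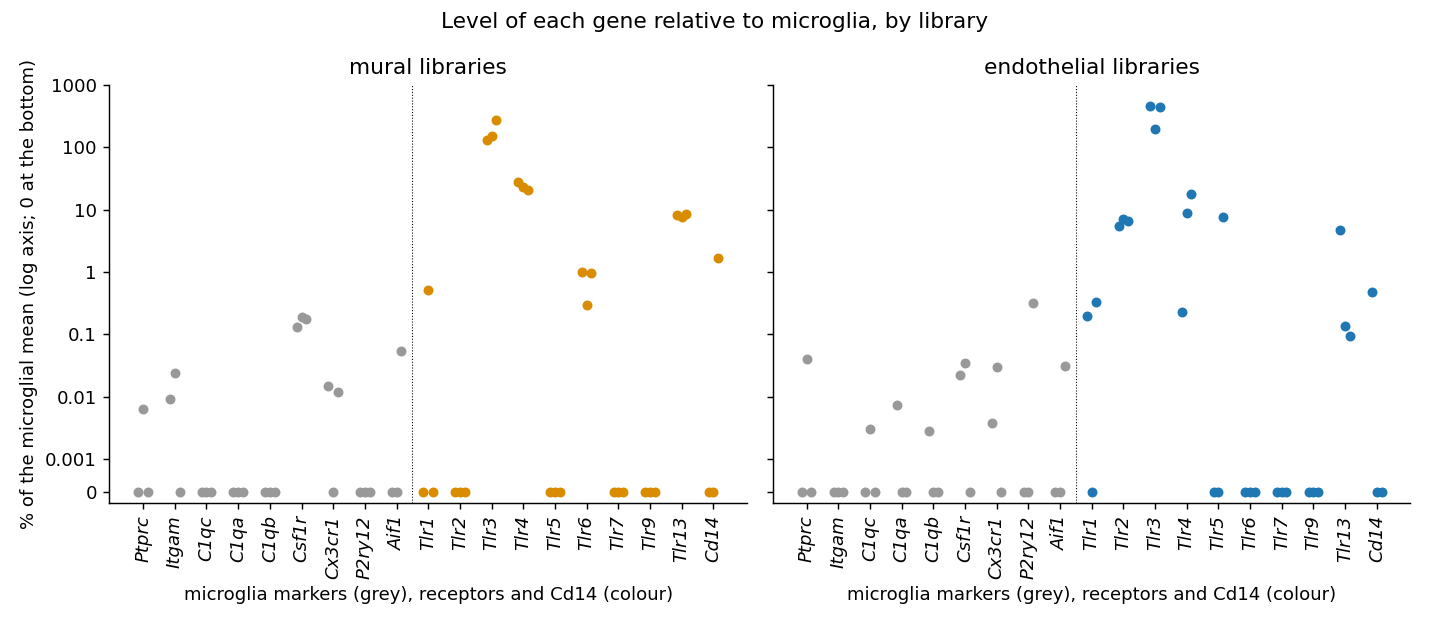
Level of 9 microglia markers (grey) and of the 10 genes (coloured) in each mural (left) and endothelial (right) library, in percent of the mean of the 3 microglial libraries, on a log axis with 0 drawn at the bottom. *Tlr3*, *Tlr4* and *Tlr13* in mural cells and *Tlr2*, *Tlr3* and *Tlr4* in endothelial cells lie above all 9 markers in each library, as does mural *Tlr6* by a smaller margin (0.294 to 1.01% against markers of at most 0.192%).

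In the single cells, a unique molecular identifier (UMI) marks each captured transcript. *Tlr13* was found in 61 of 128 microglial cells, or 47.7% (exact 95% interval 38.8 to 56.7), *Cd14* in 45.3% (36.5 to 54.3) and *Tlr7* in 38.3% (29.8 to 47.3). *Tlr2* and *Tlr4* were each found in 39 cells, or 30.5% (22.6 to 39.2), *Tlr6* in 23.4% (16.4 to 31.7), *Tlr1* in 18.0% (11.7 to 25.7) and *Tlr3* in 14.8% (9.18 to 22.2). *Tlr9* had 1 UMI in 1 cell, and *Tlr5* in 0 of 128, which limits the cells with a UMI to 2.34% by a floor of 3 cells (exact upper limit 2.84%) and not the cells that express it. As a background, the 123 neural cells held 1 UMI of *Tlr6* and none of the other 9 genes (floor of 3 cells 2.44%, exact upper limit 2.95%). Neural cells were less deep than microglial ones (median 7717 against 10761 transcripts), and with every cell thinned to 1500 transcripts the microglial shares were 9.55% for *Tlr13*, 16% for *Cd14* and 7.55% for *Tlr7*. Intervals cover counting error only.

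**Figure D3:**
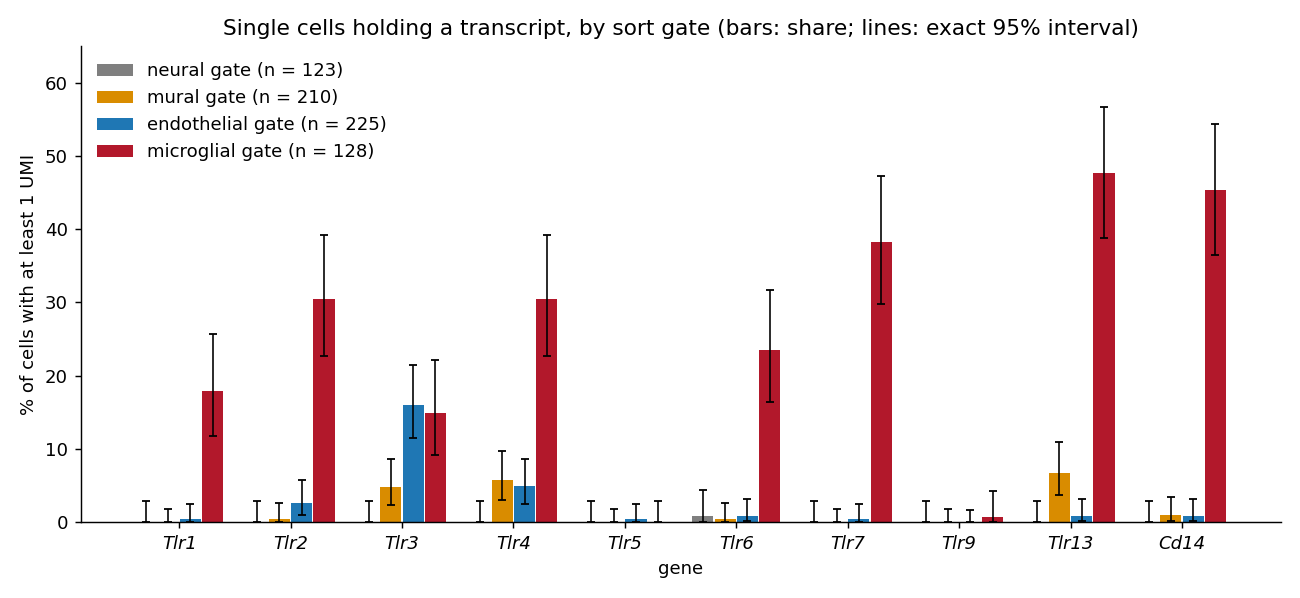
Share of single cells with at least 1 UMI of each gene, in percent, for the 4 sort gates of wild-type brain, with exact 95% intervals. The microglial gate is highest for 8 of the 10 genes, for *Tlr9* on 1 UMI in 1 of 128 cells. For *Tlr3* the intervals of the endothelial (16%) and microglial gate (14.8%) overlap, without thinning to a common depth.

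In the endothelial gate *Tlr3* was the most often detected of the genes. It was in 36 of 225 endothelial cells, or 16% (11.5 to 21.5), on plates 1, 2 and 3 in 15.8%, 17.4% and 7.69% of cells, and in 10 of 210 mural cells, or 4.76% (2.31 to 8.58). In CPM, the gene's transcripts scaled to a common total per gate, *Tlr3* was at 27.6 in endothelial, 14.6 in microglial and 9.03 in mural cells and at 0 in neural cells. *Tlr4* was in 5.71% of mural (2.99 to 9.77) and 4.89% of endothelial cells (2.47 to 8.58). *Tlr13* was in 6.67% of mural cells (3.69 to 10.9) but in 0.889% of endothelial cells (0.108 to 3.17), and *Tlr2* in 2.67% of endothelial (0.985 to 5.71) and 0.476% of mural cells (0.0121 to 2.62). Mural *Tlr13* came from 4 of 95 cells on plate 1, 10 of 105 on plate 2 and 0 of 10 on plate 3. After thinning, these shares were 4.17% for endothelial, 1.92% for microglial and 1.12% for mural *Tlr3*, 1.23% for mural *Tlr4* and 1.62% for mural *Tlr13*.

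The cells outside the microglial gate that held a receptor were checked for other markers. All 36 *Tlr3*-positive endothelial cells had UMIs of the 7 endothelial markers, with a median of 57.5, and 15 of them (41.7%) had any UMI of the 9 microglia markers, against 35.4% of the 189 endothelial cells without *Tlr3*. Of the 10 *Tlr3*-positive mural cells 2 had microglia marker UMIs and 4 (40%) border macrophage marker UMIs, against 12% of mural cells without *Tlr3*. All 12 *Tlr4*-positive and all 14 *Tlr13*-positive mural cells had mural marker UMIs, with medians of 118 and 107. Microglia marker UMIs were in 6 of the 12 (50%) and 5 of the 14 (35.7%), against 27.8% and 28.6% of the mural cells without the gene, and no mural cell had more than 6 of them. The median microglial cell had 126. Border macrophage markers were in 0 of the 12 *Tlr4*-positive and 3 of the 14 (21.4%) *Tlr13*-positive mural cells, against 14.1% and 12.8% of mural cells without the gene. The positive cells were also deeper, with a median of 9372 transcripts in *Tlr3*-positive endothelial cells against 6202 in the others, and 7446 in *Tlr4*-positive mural cells against 6846. Among the endothelial cells, 9 of 11 with *Tlr4* had endothelial marker UMIs (81.8%, against 96.7% without *Tlr4*). Of the same 11 cells, 8 had microglia marker UMIs (72.7%, against 34.6% without *Tlr4*). Their median depth was 8880 transcripts, against 6253 in endothelial cells without *Tlr4*. Of the 6 endothelial cells with *Tlr2*, 0 had microglia marker UMIs, against 37.4% of those without *Tlr2*. In the endothelial gate 2 cells had 20 or more microglia marker UMIs, a threshold chosen after the values were seen, and they carried all 3 endothelial UMIs of *Tlr7*, 1 of 2 of *Tlr6*, 1 of 2 of *Cd14* and 1 of 11 of *Tlr4*.

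Cells of the microglial gate carried several of the genes at once. At least 1 of the 10 was detected in 114 of 128 microglial cells (89.1%), at least 2 in 69.5% and at least 3 in 43.8%, with up to 7 in 1 cell. In endothelial cells 25.3% had at least 1 and 1.78% at least 2. In mural cells these shares were 17.6% and 1.43%, and in neural cells 0.813% and 0. Detection rises with depth, which was greatest in the microglial gate.

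**Figure D4:**
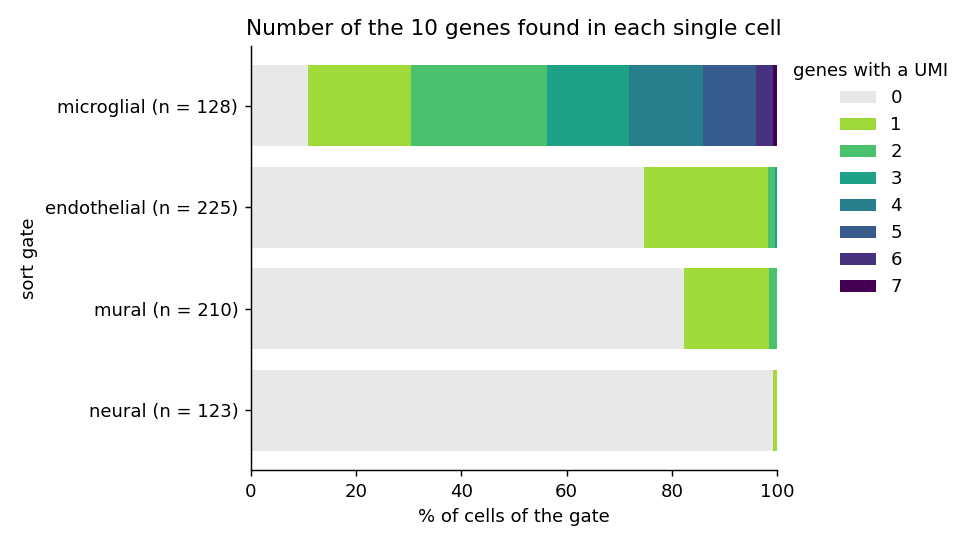
Number of the 10 genes with at least 1 UMI in each single cell, as percent of the cells of each sort gate. In microglia 89.1% of cells hold at least 1 of the genes, against 25.3% in endothelial, 17.6% in mural and 0.813% in neural cells.

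For a test over plates, the counts were summed per gate and plate. Only *Tlr6*, *Tlr7*, *Tlr13* and *Cd14* passed edgeR's filter on low counts, genes with most of their counts in microglia, so their calls add no support to the levels. All 4 were higher in the microglial gate (edgeR, adjusted p of 2.09e-10, 9.81e-15, 2.41e-14 and 5.67e-22), against 22.2% of the 9281 genes tested. On plates 1, 2 and 3 *Cd14* was at 176, 104 and 315 CPM in microglia, *Tlr7* at 45.9, 62.2 and 78.8 and *Tlr13* at 81.4, 62.2 and 19.7, where plate 3 had 6 microglial cells. *Tlr13* was not called in the mural gate (edgeR, adjusted p = 0.121), where it was the 1 gene of the 4 that was higher at an unadjusted p under 0.05. None of the 4 was called higher in the endothelial or neural gate by edgeR or DESeq2, nor was any higher there at an unadjusted p under 0.05; as genes that entered with most of their counts in microglia, they say little of the receptors in those gates. Over all genes 13.5% were called higher in the mural, 16.4% in the endothelial and 22.5% in the neural gate, shares against which these 4 genes are not read. *Tlr2*, *Tlr3* and *Tlr4* were not tested here; *Tlr3* was called higher in both the endothelial and the microglial gate by edgeR in 2 alternatives, 1 without the filter and 1 without plate 3. The plates hold cells of several libraries, and the labels do not tie a plate to 1 brain, so these p-values measure the spread between plates.

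The other genes of the pathway were taken from 7 lists of 92 genes. These lists were chosen with earlier results of these data known, so their counts are a description and not a test against all genes. Of the 87 that could be tested, 64 were higher and 2 lower in microglia than in the mean of the other populations (limma, adjusted p under 0.05), against 23.4% and 22.3% of all genes. Of the 87, 13 passed the filter only through microglia, with a mean under 10 in the other 9 libraries (5.0% of all genes tested did), so that their direction was built into the filter; of the remaining 74 genes, 51 were higher. The median difference over the 87 was 2.70 on the log2 scale, or 2.58 with populations at 0 set to 3 reads per library.

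Among co-receptors and receptor chaperones, 8 of 13 were higher and 2 lower. *Ly86* (MD-1), the partner of CD180, was at 17609 ± 3679 in microglia and at 0 to 0.473 elsewhere, and *Cd180*, a receptor related to TLR4, at 5739 ± 964 against 4.94 to 19.4. The scavenger receptors *Msr1* and *Cd36* were also higher, at 362 ± 191 and 552 ± 98.2, and were at 0 in mural and endothelial libraries. Lower in microglia were the scavenger receptor *Scarf1*, at 40.0 against 3509 in endothelial cells (limma, adjusted p = 1.26e-04), and the chaperone *Cnpy4*, at 621 against 2164 in mural cells (limma, adjusted p = 0.00463, and 0.0687 without the brain of Mi-343). *Ly96* (MD-2), without which TLR4 does not bind lipopolysaccharide, was not called (limma, adjusted p = 0.0525), at 259 in microglia, 381 in endothelial, 291 in mural and 7.81 in neural cells. *Unc93b1*, which carries the nucleic acid receptors to endosomes, was in 85.9% of microglial, 8.44% of endothelial, 11% of mural and 0.813% of neural single cells.

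Of the adaptors and proximal kinases 15 of 23 were higher and none lower. The largest differences were those of *Pik3ap1* and *Btk*, at 2589 ± 929 and 2604 ± 770 in microglia and means of at most 14.3 elsewhere, *Ticam2* (TRAM), the bridging adaptor of TLR4, at 815 ± 62.3 against 30.3 or less, and the kinase *Irak2*, at 1464 ± 65.5 against 463 in endothelial cells. Those not called included *Sarm1*, at 1792 in neural cells and 57.9 in microglia (limma, adjusted p = 0.167), and *Traf6*, at 1137 in microglia and 2001 in neural cells (limma, adjusted p = 0.469).

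All 12 transcription factors were higher. *Spi1*, which encodes PU.1, was at 12839 ± 2625 in microglia and below 1 elsewhere, *Irf5* at 5339 ± 1216, *Irf8* at 14398 ± 1653 and *Irf7* at 703 ± 348. The endothelial level of *Irf7* was 399, its libraries overlapped the microglial ones, and that pair was not called (limma, adjusted p = 0.568). All 9 tested genes of endosomal processing were higher, led by the protease *Ctss* at 62926 ± 10169, the nuclease *Pld4* at 26588 ± 4431, the protease *Lgmn* at 140983 ± 9338 and the nuclease *Dnase2a* at 4678 ± 281.

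Negative regulators were higher in 10 of 16 cases, with *Inpp5d* (SHIP1) at 13178 ± 1060, *Lyn* at 8356 ± 185, *Dusp1* at 85911 ± 10065 and *Tnfaip3* (A20) at 2561 ± 799 in microglia. The call of *Tnfaip3* was lost without Mi-340 or Mi-343 (limma, adjusted p of 0.0607 and 0.0511) and without the brain of Mi-343 or Mi-346 (limma, adjusted p of 0.0731 and 0.0713). *Sigirr*, a decoy relative of the receptors, was not called (limma, adjusted p = 0.0514), and its level was 1449 in endothelial and 240 in microglial libraries. Of the output cytokines 9 of 12 tested were higher. *Ccl4* was at 38202 ± 8857 in microglia, *Ccl3* at 18466 ± 3349, *Il1a* at 9077 ± 1675 and *Il1b* at 1420 ± 326, the last at 0 in all other libraries. *Il6*, *Ccl5* and *Cxcl1* were not called (limma, adjusted p of 0.0506, 0.116 and 0.193). Tissue was dissociated and sorted before lysis. The part of this in the levels of cytokines, negative regulators and transcription factors, whose list includes *Fos* and *Jun*, was not tested.

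**Figure D5:**
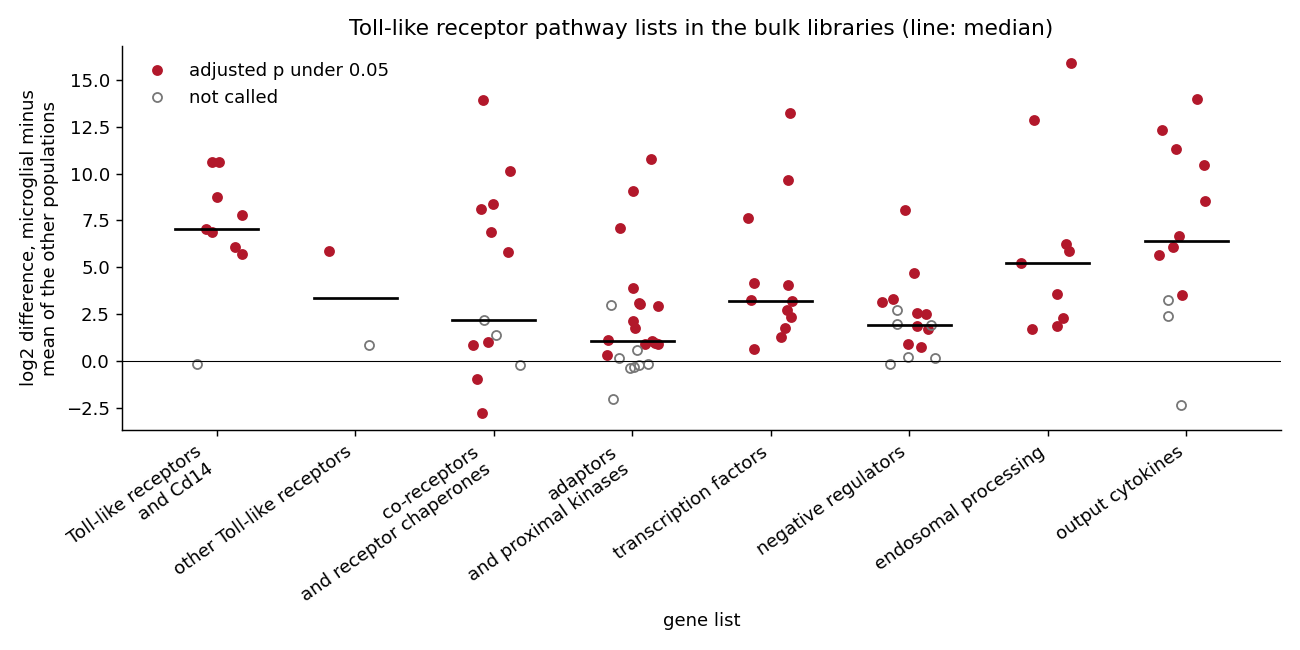
Difference between microglia and the mean of the other populations on the log2 scale, for each tested gene of the receptor group and of 7 pathway lists, with filled points for adjusted p under 0.05 (limma), open points for genes not called and a line at the median. All 12 transcription factors and all 9 tested genes of endosomal processing are called.

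Of the remaining mouse receptors, *Tlr8* was at 11.9, 43.9 and 346.2 in microglia and at 0 in the other 9 libraries, highest in Mi-346, the library high in *Ccr2*. *Tlr11* had no level above 0 outside microglia and a mean of 0.791 there. *Tlr12*, named here after its values were seen, was highest in mural cells. It was at 1910, 1653 and 3898 in mural libraries, 124, 207 and 231 in endothelial, 193, 281 and 138 in microglial and 2.67, 3.32 and 1.06 in neural libraries. All mural libraries lay above the rest, as for 7.25% of all genes, by 5.57 ± 0.41 against the mean of the others (limma, adjusted p = 3e-06). In single cells it was found in 109 of 210 mural cells, or 51.9% (44.9 to 58.8), against 11.6% of endothelial, 4.69% of microglial and 2.44% of neural cells.

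As a description over the 12 bulk libraries, which share population and kit, the genes closest to each receptor were found by Pearson correlation of log2 values. For *Tlr7* they were *C1rl*, *Crybb1* and *Gpr65* (r of 0.999, 0.998 and 0.998) and for *Tlr9* *Habp2*, *Gm34084* and *Siglece* (all at 0.998 or more). For *Tlr1* they were *Fcgr2b*, the pseudogene *Rpl21-ps1* and *Fcgr3* (0.984, 0.984 and 0.982), for *Tlr6* *Ebi3*, *Gpr157* and *Taok3* (0.986, 0.984 and 0.981) and for *Cd14* *Gpr132*, *Gpr84* and *Gm4832* (0.99, 0.971 and 0.97). *Tlr2* was closest to *Plcg2*, *Skil* and *Lrmda* (0.994, 0.993 and 0.988), *Tlr4* to *Samm50*, *Ifi211* and *Tmem176b* (0.984, 0.979 and 0.973) and *Tlr13* to *Retreg1*, *Ctsc* and *Rilpl2* (0.985, 0.975 and 0.973). For *Tlr3* the list was *Ttn*, *Gm6185* and *B930036N10Rik* (0.976, 0.972 and 0.971), and among the receptors its closest was *Tlr4* at 0.565. Within the group, *Tlr7* and *Tlr9* were most alike (0.994) and *Tlr3* and *Tlr6* least alike (-0.27).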

How the data were processed

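Bulk libraries were made by the submitters from FACS-sorted populations, and the authors deposited normalized counts (a signal on a linear scale). The submitters' processing notes name STAR, featureCounts, DESeq2 and BWA 0.6.2-r126 and the build mm10, without saying which step used which; whether counting used strand is not given in the sources used here. Up to 100 reads, 100% of 124078 values were whole multiples of 1 read within 0.01, so reads could be recovered. For single cells (mCEL-Seq2) the authors deposited expected counts, which are UMI counts corrected for identifiers drawn repeatedly; cells with over 1500 transcripts were kept, spike-ins left out. Symbols, exons and coordinates came from GENCODE vM21 (GRCm38).

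The bulk test was limma (version 3.58.1, R 4.3.3), with log2 of the deposited value plus a pseudocount of 1 as the response, all 12 libraries in 1 fit and Benjamini-Hochberg adjustment over the genes with a mean of at least 10 (two-sided). A log2 difference on this scale understates that of low genes and, where a population is at 0, depends on the pseudocount. Folds are ratios of means, with a population at 0 set to 3 reads per library. Single-cell sums per gate and plate, rounded to whole numbers, were compared with edgeR 4.0.16 and, as an alternative, DESeq2 1.42.0. Thinned shares are expected values at 1500 UMIs per cell. Brain numbers were read as pairing the libraries of a brain, since the study collected all populations from each brain; the residual correlation between populations of a brain ran from -0.054 to 0.0801. Intervals are exact (Clopper-Pearson). The methods were tested on simulated data. Python 3.11.15, pandas 2.3.3, scipy 1.17.1 and matplotlib 3.10.9 were used.

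Named genes are the 10 genes of the group; per pathway list, the 4 largest differences called higher and the 3 most negative called lower; and the 3 genes most correlated with each gene of the group. Any other gene was named after its values were seen. The group and the lists were chosen with earlier results of these data known. Not used were the knockout wells, 25 wells of a PDGFRb medium or low gate and 37 wells without a gate.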

Additional observations from a re-analysis of the deposited data

How the results depend on the processing

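The 8 genes called higher in microglia kept their direction and call in all 22 fits run for each (limma and edgeR; highest adjusted p 0.0237, *Tlr4*), which for *Tlr1*, *Tlr6*, *Tlr7* and *Tlr9* the filter made likely beforehand, and the endothelial calls of *Tlr2* and *Tlr3* held in all of theirs. The count of genes called higher in mural cells was 1 (*Tlr4*) and became 2 after quantile normalization and with edgeR on recovered reads, both adding *Tlr3*; it ran from 0 to 3 when a brain was left out and from 0 to 2 when a single library was left out, an alternative added after the data were seen. The microglial difference of *Tlr3* (-0.15) turned to 0.24 with edgeR and ran from -0.79 to 0.82 without a brain or library, turning without Mi-340; the endothelial difference of *Tlr4* (-0.67) turned to 1.14 with edgeR and ran from -1.87 to 1.13, turning without Ec-340. The cause was not tested. Pathway genes called lower in microglia, 2 in all, were 1 to 4 with a brain or library left out. In single cells, edgeR without the filter on low counts called 8 genes higher in the microglial gate, in place of 4 (*Tlr3* among them, unlike in bulk, and not *Tlr9*), and 1 (*Tlr3* again) in the endothelial gate, in place of 0. With a plate left out these counts ran from 2 to 8 and from 0 to 1, the lowest without plate 1 or 2 (*Tlr7* and *Cd14*) and the highest without plate 3; the filter then tests other genes. With brain as a block (replicate block), the counts remained 8 in microglia, 1 in mural, 2 in endothelial and 0 in neural cells, and no call of the 9 genes changed. Quantile normalization moved the median difference over all genes from 0.09 to -0.16 in neural, from -0.10 to 0.04 in mural and from -0.12 to -0.01 in endothelial cells. With edgeR the genes called higher and lower were 4184 and 2805 in mural (limma 3821 and 4485), 4115 and 2514 in endothelial (3892 and 4430) and 4606 and 3210 in microglial cells (4621 and 4406). Of the log2 differences of named genes, 406 kept their call and sign and 8 did not over the settings that use all libraries; without a library these were 799 and 28, and without a brain 184 and 22. Leaving out the brain of Mi-343 or of Mi-346 ended the mural call of *Tlr4* (adjusted p of 0.143 and 0.0842), the *Tlr13* calls between microglia and mural (0.163 and 0.171) and mural and endothelial cells (0.204 and 0.211) and the *Tlr3* call between microglia and neural cells (0.0646 and 0.0731); leaving out any 1 brain ended the *Tlr3* call between endothelial cells and microglia (0.0605 to 0.199), and leaving out that of Mi-343 the same *Tlr4* call (0.0808). Outside neural libraries 1 read was worth 0.437 to 1.77 normalized counts, so levels of a few counts there were set by a few reads.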
